A study of Populus trichocarpa with 12 samples.

Results

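Lines 5, 17 and 30 are 3 of the 9 transgenic black cottonwood trees (Populus trichocarpa) in a series of 12 trees, and their developing xylem was set against that of the other 6 transgenic lines (1, 3, 6, 9, 10 and 26). All 9 lines overexpress miR397a from the CaMV 35s promoter, all trees have the Nisqually-1 background, and 3 wild-type trees without the transgene are shown as a reference only. The series' design text counts the 9 lines as individual transgenic trees, so each line is 1 tree and 1 RNA-seq library, and a difference between lines cannot be told apart from a difference between single trees. The labels give the 9 lines the same genotype, tissue and greenhouse conditions. The 3 lines were singled out on the deposited read counts themselves, not on a label. Every difference between them and the other 6 lines is therefore a description of how these 9 trees varied. Where loci are counted as called, the fit was used only to rank and count them.

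Developing xylem is the layer of young wood cells that expand, lay down a secondary wall of cellulose, xylan and lignin, and in vessels and fibres then die. MiR397a is a plant microRNA that guides cleavage of laccase mRNAs, and laccases are wall-bound copper oxidases that act on the precursors of lignin. A viral promoter such as CaMV 35s drives its transgene in most cell types, and separate transgenic lines usually differ in where the transgene inserted and how strongly it is expressed. In such bulk tissue, fewer cells of a type and less RNA per cell cannot be told apart. The sources used here pair no locus with a gene name, so loci are given by chromosome, with the identifier for only a few. For the same reason no marker gene of xylem or of another tissue could be looked up, and no sequence is shown.

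Counts summed over loci were 8015226, 16585462 and 14485103 reads in lines 5, 17 and 30, against 14170524 to 34112839 reads in the other 6 lines and 12580140 to 23611857 reads in wild type. The shallowest library was thus line 5. After thinning to the depth of line 5, 30114 to 30487 loci had at least 1 read in the 3 lines, against 29305 to 30623 in the other 6 lines and 29319 to 30175 in wild type. These ranges overlap. Rank correlations of log2 expression were 0.979 to 0.988 among the 3 lines, 0.968 to 0.985 between them and the other 6 lines, and 0.975 to 0.990 among the other 6. The 3 lines were therefore not more alike among themselves than the other 6 lines were. The first principal component of the 9 lines held 39.6% of the variance. On it lines 17 and 30 lay at -41.0 and -35.2 and line 5 at -10.1, while line 1, at -16.9, lay between them and the remaining 5 lines ran from -1.50 to 37.5. On that axis the 3 lines and the other 6 overlapped. On the second component, with 15.1% of the variance, line 5 stood apart at 40.01, while lines 17 and 30 lay at -5.77 and 6.57 and the other 6 lines ran from -22.2 to 9.06. The fit without line 5 is given beside the count of called loci.

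The loci called between the 3 lines and the other 6 mostly differed by small shifts, while the greatest differences among abundant loci, mostly on chromosomes 5, 8 and 14, were not called with edgeR and are described further on. Of 26032 tested loci, 540 were called higher and 676 lower in lines 5, 17 and 30 (edgeR quasi-likelihood fit, Benjamini-Hochberg adjusted p below 0.05). That is 2.07% and 2.6% of the tested loci, 4.67% in all, and nothing is read from these shares because the lines were chosen on these counts. The median log2 fold change was 0.62 (1.54-fold) among the higher loci and -0.51 (1.42-fold) among the lower ones, against 0.02 over all tested loci. A change of at least 2-fold was fitted at 91 of the 540 higher loci (16.9%) and at 26 of the 676 lower loci (3.85%), against 0.968% of all tested loci fitted at least 2-fold higher and 0.945% at least 2-fold lower (1.91% together). At 22526 loci (86.5%) the log2 fold change was smaller than 0.5 in size. The levels of the 3 lines and the other 6 did not overlap at 3260 loci, 12.5% of those tested, and at 1096 of the 1216 called loci (90.1%). By direction these were 497 of the 540 higher loci and 599 of the 676 lower loci, beside 6.06% and 6.46% of all tested loci.

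**Figure D1:**
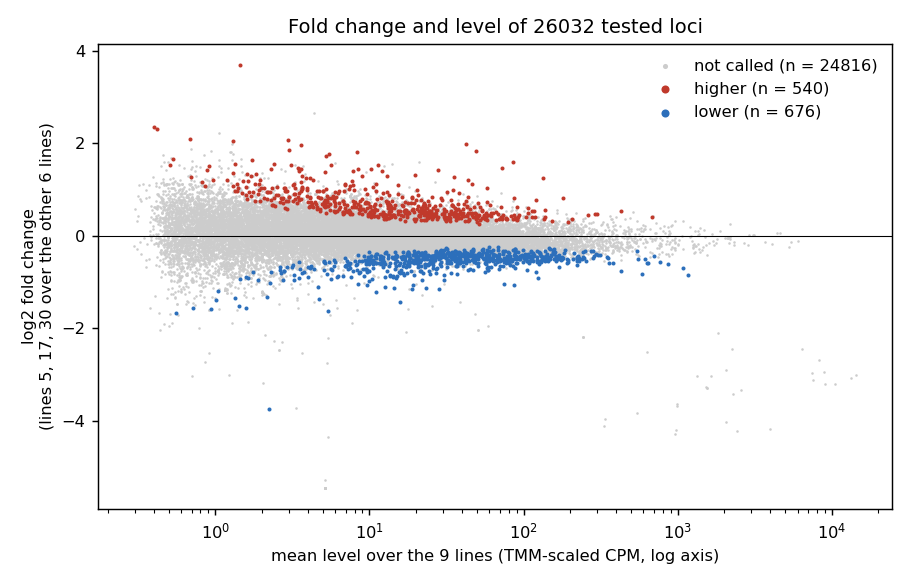
Log2 fold change of lines 5, 17 and 30 over the other 6 lines (vertical axis) against the mean level over the 9 lines in TMM-scaled CPM (reads relative to library size, log axis), 1 point per tested locus; red points are the 540 loci called higher, blue points the 676 called lower and grey points the rest. The lower loci lie further to the right than the higher ones, and the grey points at the lower right are abundant loci with large differences that were not called.

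The lower loci were the more abundant ones. Their median level was 35.4 CPM (reads relative to the library's size, scaled by TMM), against 13.2 CPM for the higher loci and 10.1 CPM for all tested loci. Among loci with a mean of 100 CPM or more, 138 of 1637 (8.43%) were called lower and 21 (1.28%) higher. Among loci of 1 to 10 CPM the order was turned, with 97 of 10785 (0.899%) lower and 211 (1.96%) higher. Of the 500 loci most abundant in the other 6 lines, 32 were called lower and 4 higher. Among loci of 10 to 100 CPM, 438 of 11440 (3.83%) were called lower and 297 (2.60%) higher. The cause of this pattern by direction, the part of read depth included, was not tested.

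The count of called loci depended on single trees. It was 4 without line 30, 121 without line 17 and 1999 without line 5. Among the other lines it was 3575 without line 1, 827 without line 6 (425 lower), 489 without line 10, 265 without line 26, 201 without line 9 and 176 without line 3. The sizes moved less: over these 9 fits the median log2 fold change of the 540 loci lay between 0.58 and 0.64, and that of the 676 loci between -0.58 and -0.45. These loci were the ones called with all 9 lines, and each fit kept all but 1 of the same trees. Little movement was therefore largely built in, and nothing is read from it. DESeq2 called 2825 loci, 1118 higher and 1707 lower, among them 1199 of the 1216. The split by direction depended on scaling. With plain library totals the median of all tested loci shifted to 0.27, and 293 of 300 calls (97.7%) were higher, against 44.4% with TMM.

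Summed over the called loci, the groups of lines stood clearly apart, as the choice of loci makes certain. The wild-type trees stood nearer to the other 6 lines. The 540 higher loci added up to 18058 CPM in line 5, 18044 CPM in line 17 and 19384 CPM in line 30. In the other 6 lines the sum averaged 12600 ± 545 CPM (SD, n = 6; lowest 11856 in line 26, highest 13413 in line 1), and in wild type 13183 ± 623 CPM (SD, n = 3). Wild-type tree 2, at 13881 CPM, stood above each of the other 6 lines. The mean of lines 5, 17 and 30 was 1.47 times that of the other 6. The 676 lower loci added up to 41104 CPM in line 5, 35576 CPM in line 17 and 33503 CPM in line 30. They averaged 52223 ± 3606 CPM in the other 6 lines (SD, n = 6; 47061 to 56354) and 50006 ± 3407 CPM in wild type (SD, n = 3), so the 3 lines stood at 0.703 times the other 6.

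**Figure D2:**
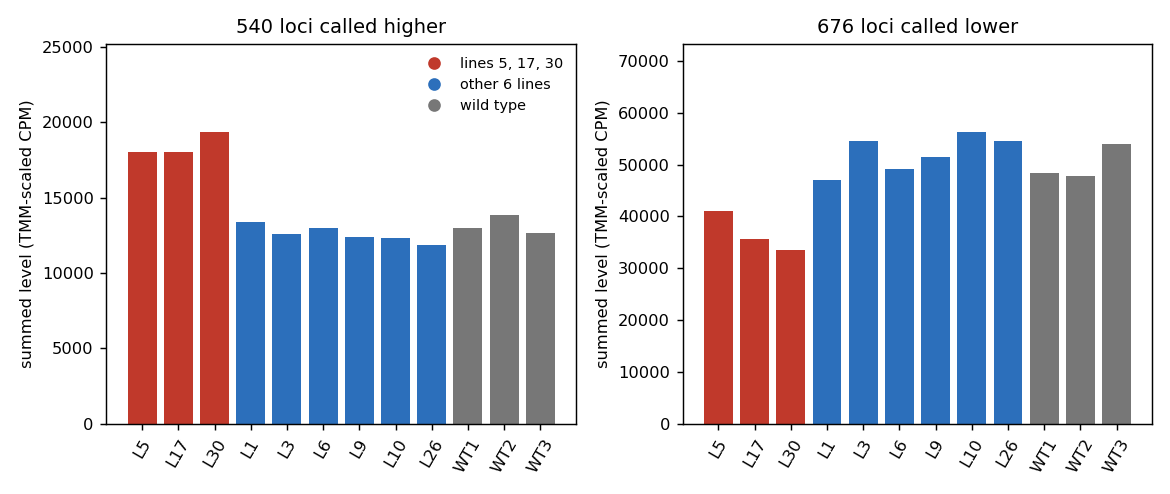
Summed level in TMM-scaled CPM of the loci called higher (left) and lower (right) in lines 5, 17 and 30, 1 bar per tree, red for lines 5, 17 and 30 (L5, L17, L30), blue for the other 6 lines and grey for wild type (WT1 to WT3). The 3 red bars stand above all others on the left (18044 to 19384 CPM) and below all others on the right (33503 to 41104 CPM), while the grey bars (12686 to 13881 CPM on the left, 47699 to 53919 CPM on the right) stand near the blue ones.

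The 3 lines did not stand apart equally far. Measured from the mean of the other 6 lines on the log2 scale, the median over the 540 higher loci was 0.50 in line 5, 0.57 in line 17 and 0.61 in line 30. Over the 676 lower loci it was -0.34 in line 5, -0.52 in line 17 and -0.60 in line 30. Line 30 was the lowest of the 3 at 448 of the 676 lower loci, line 17 at 171 and line 5 at 57. At the higher loci the order was less uneven, with line 30 highest at 236, line 17 at 159 and line 5 at 145. Line 30 lay beyond all 6 other lines at 538 of the 540 higher and at 676 of the 676 lower loci. Line 5 did so at 508 and 602. Of the other 6, line 1 came nearest to the 3: it was the lowest of the 6 at 418 of the lower loci (61.8%) and the highest of the 6 at 198 of the higher loci (36.7%). Line 6 followed, at 118 and 134.

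The wild-type trees were in neither group of the comparison nor in its fit, and show where the same loci stand without the transgene. At the 540 higher loci, wild-type trees 1, 2 and 3 lay within the range of lines 5, 17 and 30 at 64, 102 and 30 loci, and within that of the other 6 lines at 269, 252 and 353. At the 676 lower loci they lay within the range of lines 5, 17 and 30 at 97, 68 and 14 loci, and within that of the other 6 lines at 375, 432 and 469. The rest lay between the ranges or beyond them. Wild-type tree 2 was the nearest to lines 5, 17 and 30 at the higher loci and wild-type tree 3 the furthest at both. Of the called loci without overlap, all 3 wild-type trees were below each of lines 5, 17 and 30 at 390 of the 497 higher ones (78.5%), and above each of them at 507 of the 599 lower ones (84.6%). The opposite, with all 3 wild-type trees beyond the 6 lines on the side of lines 5, 17 and 30, was met at 39 (7.85%) and 28 (4.67%). Wild type thus stood mostly on the side of the other 6 lines, at loci that had been chosen because lines 5, 17 and 30 were extreme there.

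Among called loci of at least 5 CPM without overlap, the greatest fold difference upward was at Potri.004G047100 on chromosome 4. It stood at 92.3 CPM in line 5, 61.0 CPM in line 17 and 98.1 CPM in line 30, against a lowest, median and highest of 13.8, 20.2 and 30.3 CPM in the other 6 lines and 11.3, 13.4 and 12.5 CPM in wild-type trees 1, 2 and 3. All 3 lines stood well above line 10, the highest of the other 6, and all 3 wild-type trees stood below the lowest. The fitted log2 fold change of Potri.004G047100 was 1.97 ± 0.22 (SE), a 3.93-fold difference.

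The next, Potri.004G040600, also on chromosome 4, stood at 126 CPM in line 5, 62.9 CPM in line 17 and 93.5 CPM in line 30. In the other 6 lines it had a lowest, median and highest of 16.4, 21.5 and 47.7 CPM, and in wild-type trees 1, 2 and 3 it had 11.0, 33.6 and 22.6 CPM. Line 10 came nearest to the 3 lines. Wild-type trees 2 and 3 lay within the range of the other 6, and wild-type tree 1 lay below it. The log2 fold change of Potri.004G040600 was 1.83 ± 0.36 (SE). Its call was lost in 10 of 21 alternative fits, among them those without each of lines 3, 5, 6, 9, 17, 26 and 30.

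The other 6 of the 8 loci furthest up lay on chromosomes 17, 4, 13 and 1 (2 loci) and, in 1 case, under a name that gives no chromosome. Their log2 fold changes ran from 1.52 to 1.81. The locus on chromosome 13 was the most abundant of them, at 81.1 CPM in line 5, 153 CPM in line 17 and 226 CPM in line 30, against a lowest, median and highest of 33.1, 51.1 and 70.6 CPM in the other 6 lines and 34.0 to 58.8 CPM in wild type. There line 5 stood close to the top of the other 6. A further locus on chromosome 4 showed the reverse order among the 3 lines, with 16.8 CPM in line 5, 9.82 CPM in line 17 and 4.57 CPM in line 30, against 2.58 to 3.53 CPM in the other 6 lines and 2.18 to 2.84 CPM in wild type. The 3 lines thus did not form 1 fixed order at the loci that stood furthest up.

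**Figure D3:**
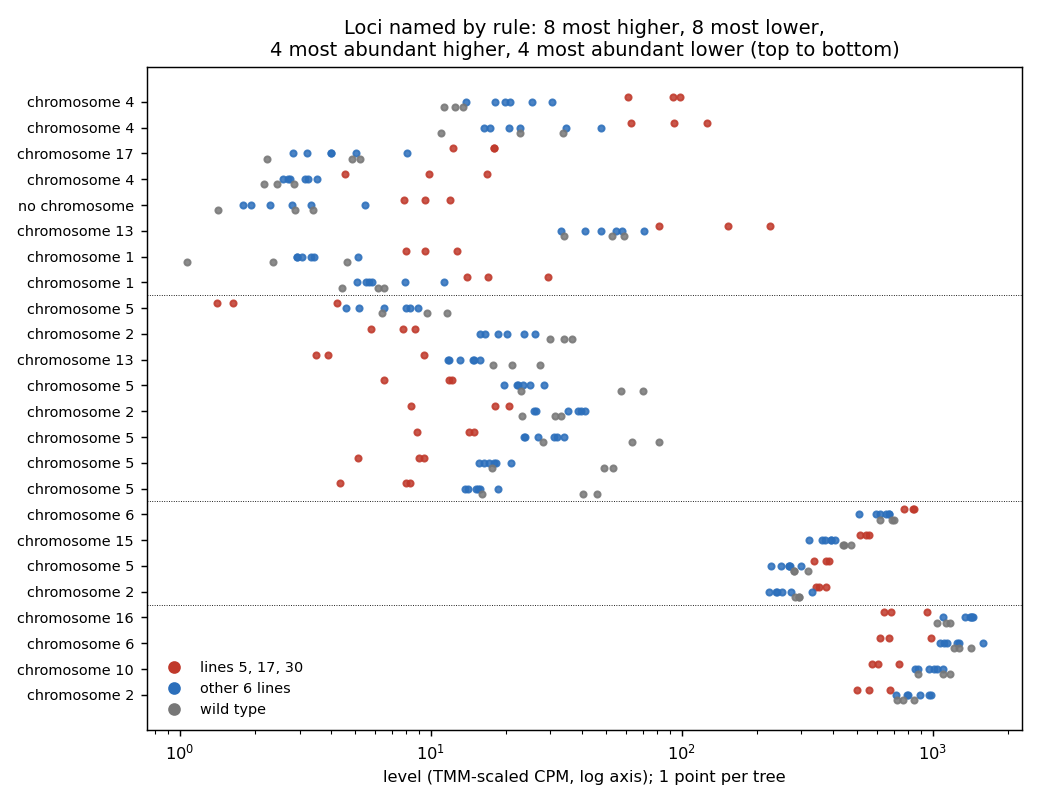
Level in TMM-scaled CPM (log axis) of the 24 loci named by rule, 1 point per tree: red, lines 5, 17 and 30; blue, the other 6 lines; grey, wild type. Dotted lines part, from top to bottom, the 8 loci with the largest log2 fold changes, the 8 with the smallest, and the 4 most abundant called higher and lower; red and blue points do not overlap at any of them, which the rule requires.

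Downward, the greatest fold difference among such called loci was at Potri.005G174000 on chromosome 5. It stood at 4.23 CPM in line 5, 1.41 CPM in line 17 and 1.62 CPM in line 30. The other 6 lines had a lowest, median and highest of 4.59, 7.23 and 8.90 CPM, and wild-type trees 1, 2 and 3 had 6.39, 9.71 and 11.7 CPM. Line 5 came close to the lowest of the other 6, and the log2 fold change of Potri.005G174000 was -1.63 ± 0.35 (SE). Its call was lost in 10 of 21 alternative fits, among them those without each of lines 3, 9, 10, 17, 26 and 30. Each of the 24 named loci lost its call in some of the 21, from 3 to 11 of them with a median of 6. Without line 30 alone 23 of the 24 calls were lost, and without line 17 or without line 3 there were 14 lost.

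Potri.002G060500 on chromosome 2 was at 7.77, 8.66 and 5.77 CPM in lines 5, 17 and 30. The other 6 lines had a lowest, median and highest of 15.7, 19.4 and 26.1 CPM, and wild-type trees 1, 2 and 3 had 33.8, 29.8 and 36.5 CPM. The 3 groups of trees did not overlap here, with wild type highest and lines 5, 17 and 30 lowest. The log2 fold change of Potri.002G060500 between the 2 groups of lines was -1.44 ± 0.19 (SE). The locus next to it on chromosome 2 was lower still in lines 5, 17 and 30. It had 0, 11 and 0 reads in lines 5, 17 and 30, 42 to 121 reads in the other 6 lines, and 88, 139 and 41 reads in wild-type trees 1, 2 and 3. Its levels were 0 to 0.554 CPM in the 3 lines, 2.47 to 5.39 CPM in the other 6 and 3.57 to 7.81 CPM in wild type, so that here wild type overlapped the 6. This neighbour was singled out after its values were seen, as the called locus with the smallest log2 fold change at any level.

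Of the other 6 loci furthest down, 4 lay close together on chromosome 5, and 3 of those were direct neighbours among the tested loci. The 3 neighbours together stood at 20.5, 35.9 and 35.4 CPM in lines 5, 17 and 30, against a lowest, median and highest of 58.8, 68.2 and 83.2 CPM in the other 6 lines. Wild-type trees 1, 2 and 3 stood at 68.3, 170 and 205 CPM. Lines 5, 17 and 30 were below every other tree, and 2 of the wild-type trees were above every line. The log2 fold changes of the 3 neighbours between the 2 groups of lines were -1.16 to -1.13. Whether these neighbours are near-identical copies that share reads was not tested, so their separate values are uncertain. The remaining 2 were on chromosome 13 (log2 fold change -1.23) and chromosome 2 (-1.16).

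The most abundant called loci differed less. Downward, a locus on chromosome 16 stood at 948, 683 and 641 CPM in lines 5, 17 and 30, against a lowest, median and highest of 1099, 1411 and 1446 CPM in the other 6 lines and 1131, 1038 and 1176 CPM in wild-type trees 1, 2 and 3. Its log2 fold change was -0.85 ± 0.14 (SE), and wild type lay between the 2 groups of lines or at the low end of the 6. A locus on chromosome 6 averaged 758 ± 198 CPM in the 3 lines, 1238 ± 187 CPM in the other 6 and 1307 ± 104 CPM in wild type (SD, n = 3, 6 and 3). Loci on chromosomes 10 and 2 had log2 fold changes of -0.61 and -0.57. Upward, the most abundant locus lay on chromosome 6 and stood at 771, 839 and 841 CPM in lines 5, 17 and 30, against a lowest, median and highest of 508, 634 and 669 CPM in the other 6 lines and 617 to 699 CPM in wild type. Its log2 fold change was 0.40 ± 0.10 (SE), and wild type reached above the other 6 but not to the 3 lines. The next 3, on chromosomes 15, 5 and 2, had log2 fold changes of 0.46 to 0.52.

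The called loci were spread over all 19 chromosomes. The share of tested loci that was called ran from 3.73% on chromosome 11 to 5.59% on chromosome 7. With TMM scaling, more were lower than higher on 17 of the 19 chromosomes, as among all called loci (676 lower, 540 higher). This split by direction depended on scaling, as given above. The exceptions were chromosome 18, with 26 higher and 14 lower, and chromosome 4, with 31 higher and 25 lower. Runs of neighbouring tested loci called in the same direction were short: 55 runs of 2 loci, 8 of 3 and 1 of 4. The run of 4, on chromosome 13, summed to 251, 212 and 181 CPM in lines 5, 17 and 30, against a lowest, median and highest of 262, 306 and 328 CPM in the other 6 lines and 257 to 315 CPM in wild type. Of the 8 runs of 3, 7 were lower. The 1 that was higher, on chromosome 1, had log2 fold changes of 1.12 to 1.49 and averaged 5.92 ± 1.69 CPM in the 3 lines, 2.43 ± 0.76 CPM in the other 6 and 2.26 ± 1.22 CPM in wild type (SD, n = 3, 6 and 3). Among all tested loci, 250 had the same counts as another locus in every library, but only 2 of these were called. Loci with identical counts thus add little to the 1216. Whether called neighbours with nearly the same counts share reads was not tested.

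A stretch of 9 neighbouring loci on chromosome 5 took a smaller share of the reads in lines 5, 17 and 30 than in any of the other 6 lines. The share was 2.80% in line 5, 1.14% in line 17 and 1.27% in line 30. In the other 6 lines it was 3.91% in line 1, 13.0% in line 3, 3.77% in line 6, 7.55% in line 9, 16.8% in line 10 and 18.7% in line 26. In wild-type trees 1, 2 and 3 it was 18.9%, 2.80% and 16.0%. The groups of lines did not overlap, but wild-type tree 2 stood level with line 5. Exact 95% intervals (Clopper-Pearson) for counting error were narrow, from 2.79% to 2.81% in line 5 for example.

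The share of other variable loci was also low in the 3 lines. Defined after the data were seen as loci of at least 100 CPM whose highest line was at least 8 times the lowest, 34 loci varied this widely. They were the 9 of the stretch, 2 more on chromosome 5 just past its end, 12 on chromosome 14, 5 on chromosome 8, 1 on chromosome 6 and 5 with no chromosome number. All but the locus on chromosome 6 were fitted lower in the 3 lines, with a median log2 fold change of -3.16 over the 34. The 3 lines and the other 6 did not overlap at 13 of the 34, a larger share than the 12.5% of all tested loci, and overlapped at the rest. The 34 were chosen for their wide spread among these same lines, so nothing is read from that share. None of the 34 was called with edgeR, which gave 0 calls and 22 unadjusted p-values below 0.05, while DESeq2 called 29 and limma-voom 9. Some neighbours on chromosome 14 had the same level as each other in every tree, so these are not counts of separate observations. The 25 outside the stretch held 0.718%, 0.365% and 0.640% of the reads in lines 5, 17 and 30. The other 6 lines ran from 0.723% in line 1 to 8.31% in line 10, and the wild-type trees from 0.600% to 8.36%. For example, a chromosome 8 locus of this set stood at 454, 140 and 372 CPM in lines 5, 17 and 30, at 499 and 503 CPM in lines 1 and 6, and at 1262 to 13611 CPM in lines 3, 9, 10 and 26. At a chromosome 14 locus of the set, lines 5, 17 and 30 stood at 137, 44.6 and 162 CPM and line 1 at 27.7 CPM, below them. Line 6 stood there at 158 CPM, line 9 at 190 CPM, and lines 3, 10 and 26 at 1251 to 3726 CPM. Lines 1 and 6 were thus close to the 3 lines at these loci, and line 1 was not always above them.

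**Figure D4:**
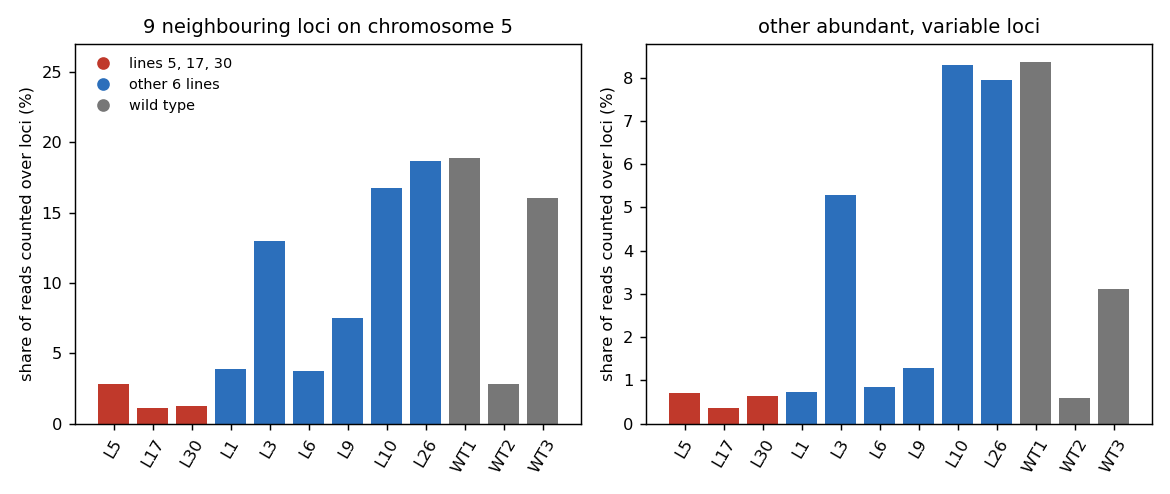
Share of all reads counted over loci (percent, 1 bar per tree) held by 9 neighbouring loci on chromosome 5 (left) and by the 25 other abundant loci that varied most among the lines (right); red, lines 5, 17 and 30; blue, the other 6 lines; grey, wild type. The 3 red bars on the left (1.14% to 2.80%) are lower than every blue bar (3.77% to 18.7%), and wild-type tree 2 (2.80%) stands level with line 5.

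A further pair of fits took the share of the chromosome 5 stretch into account. When only lines 1 and 6, the other lines with the lowest shares, were kept against lines 5, 17 and 30, edgeR called 0 loci and 2231 had an unadjusted p below 0.05, against 6602 in the fit of all 9 lines. The median log2 fold change of the 540 higher loci was then 0.52 and that of the 676 lower loci -0.38. With the log2 share as a covariate in the fit of all 9 lines, edgeR also called 0 loci, 3368 had an unadjusted p below 0.05, and the medians were 0.43 and -0.25. Of the 24 named loci, 13 had a log2 fold change larger in size in this covariate fit and 11 a smaller one. By over 1.5 times, 9 were smaller and 2 larger. The 9 smaller by over 1.5 times included Potri.005G174000 at -0.50 and the chromosome 13 locus furthest up at 0.81. They also included the chromosome 2 locus below Potri.002G060500 in rank at -0.53 and 6 of the 8 most abundant loci. Of those 6, the higher ones on chromosomes 6, 15 and 2 stood at 0.14, 0.32 and 0.09, and the lower ones on chromosomes 16, 6 and 2 at -0.47, -0.17 and -0.12. Both fits were chosen after the data were seen and have fewer libraries or fewer residual degrees of freedom. The share did not overlap between the groups (1.14% to 2.80% in the 3 lines, 3.77% to 18.7% in the other 6). As a covariate it therefore takes up part of the group difference by its nature. Lines 1 and 6 were also the nearest to the 3 lines at the called loci. Neither fit can thus part the share from the grouping of the lines. Removing the 34 loci before scaling left 1215 calls. The part of this share in the differences was not tested.

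The loci lower in the miR397a lines than in wild type, outside chromosome 3, gave a sum in lines 5, 17 and 30 that lay within the range of the other 6. Of 24 loci called between all 9 lines and the 3 wild-type trees in the same way, 15 are lower in the lines and lie outside chromosome 3. The sum of these 15 was 736, 831 and 737 CPM in lines 5, 17 and 30, against a lowest, median and highest of 532, 713 and 899.8 CPM in the other 6 lines and 2532, 2143 and 2186 CPM in wild-type trees 1, 2 and 3. All 9 lines were far below wild type, which the choice of these loci makes likely. A fit of all 9 lines against wild type also favours loci with little spread among the lines. Likeness between the 2 groups of lines is therefore partly built in. Between the 2 groups of lines, the log2 fold changes of the 15 ran from -0.08 to 0.77 with a median of 0.06, against 0.02 over all tested loci. Of the 15, 11 were above 0, but some of the 15 are neighbours, so nothing is read from that count. By edgeR 0 of the 15 were called, with 2 unadjusted p-values below 0.05, by DESeq2 1 and by limma-voom 0. Over all tested loci edgeR called 4.67% and gave 25.4% an unadjusted p below 0.05, so 0 calls among 15 loci is near the overall share and nothing is read from it. The upper end was a chromosome 1 locus, at 4.46, 5.08 and 5.95 CPM in lines 5, 17 and 30, against a lowest, median and highest of 1.98, 3.18 and 3.87 CPM in the other 6 lines and 22.9 to 28.8 CPM in wild type. It was the 1 locus of the 15 that did not overlap between the 2 groups of lines, beside 12.5% of all tested loci. Its log2 fold change was 0.77 ± 0.22 (SE).

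**Figure D5:**
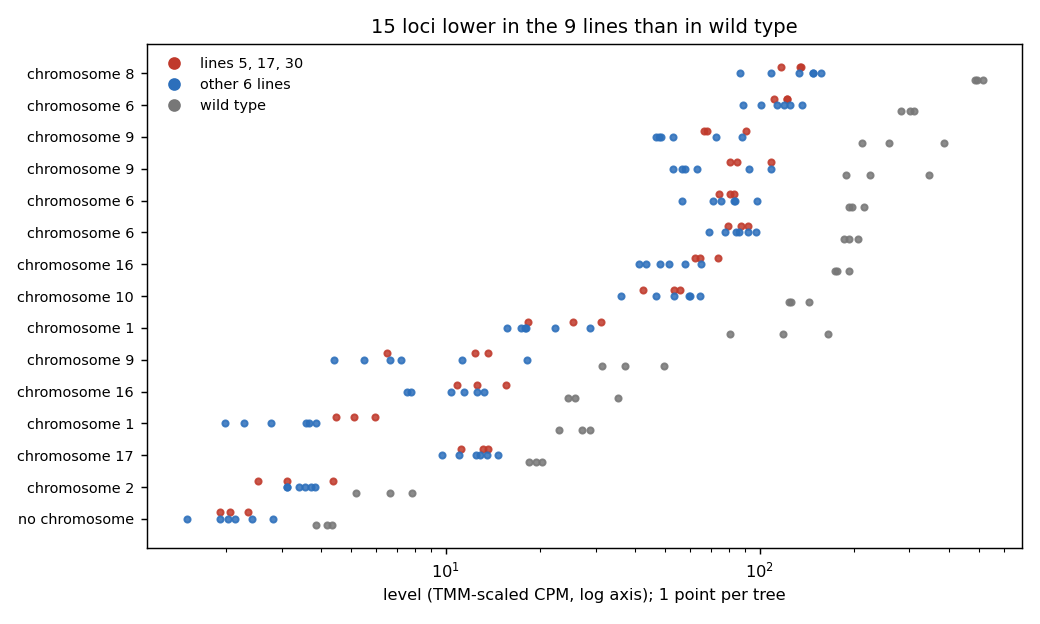
Level in TMM-scaled CPM (log axis) of the 15 loci lower in the 9 lines than in wild type outside chromosome 3, 1 point per tree: red, lines 5, 17 and 30; blue, the other 6 lines; grey, wild type. Red and blue points overlap at all 15 loci except the lower of the pair labelled chromosome 1, where the red points lie at 4.46 to 5.95 CPM, and the grey points lie to the right of both colours at each locus.

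Of the 24 loci called against wild type, 3 were higher in the lines than in wild type, too few for a count of calls to be read. The one with almost no wild-type reads, Potri.011G041300 on chromosome 11, stood at 41.8, 23.9 and 28.6 CPM in lines 5, 17 and 30, against a lowest, median and highest of 23.4, 34.7 and 81.7 CPM in the other 6 lines. Its log2 fold change between the groups of lines was -0.49 ± 0.40 (SE), and the 3 lines lay within the range of the 6. The 6 neighbouring loci of chromosome 3 that were nearly silent in the lines had too few reads to be tested among the 9 lines. Their sum was 0.915 CPM in line 5, 9.36 CPM in line 17 and 0.120 CPM in line 30, against 0.0947 to 1.43 CPM in the other 6 lines and 31.7 to 71.5 CPM in wild type. Line 17 alone stood above the other lines there, and lines 5 and 30 did not share its level.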

How the data were processed

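RNA-seq libraries of developing xylem came from 12 trees, 1 library per tree. The tools named, without roles, per the submitters' processing notes are bedtools 2.14.2, Bowtie, TopHat and TopHat2 2.0.3. Not given in the sources used here: genome build, annotation, and how multiply aligned reads were counted. What the authors deposited is raw read counts for 73013 transcript models of 41335 loci, without normalization. Each locus was represented by its model with the highest read sum across the 12 columns.

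Lines 5, 17 and 30 were compared with the other 6 lines by edgeR 4.0.16 (R 4.3.3): filterByExpr (minimum count 10), TMM scaling, robust quasi-likelihood fits of the 9 lines, Benjamini-Hochberg adjustment, threshold 0.05. Standard errors are the size of the log2 fold change over the square root of F. Printed CPM are TMM-scaled over all 12 libraries; deviations use log2(CPM + 0.5). A locus is called overlapping when the CPM ranges of the 2 groups meet. Loci lower or higher in all 9 lines than in wild type come from the same fit over 12 libraries. The chromosome 5 stretch runs from Potri.005G132300 to Potri.005G133100. Intervals cover counting error only.

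The lines, the lists and the stretch were chosen with earlier results of these data known. Named loci are called, of at least 5 CPM and without overlap: the 8 largest and 8 smallest log2 fold changes and the 4 most abundant in each direction. The first 2 upward and downward have their identifier printed, since the reference gene table matched 0 of the loci. Lists of genes by function and of tissue markers had been planned on gene descriptions and were not run. On counts simulated for this comparison (25667 loci, 50 changed by each fold), the test recovered 15 at 1.5-fold, 30 at 2-fold, 48 at 4-fold and 48 at 8-fold, with 11 false calls among 152. The simulated loci varied independently of each other, and no lines were picked on the simulated counts. The simulation therefore gives no error rate for the calls made here, where the lines were chosen on the counts. Counts of wild-type trees beyond each of the 3 lines were restricted to called loci without overlap after the data were seen. Alternatives included DESeq2 1.42.0 and limma-voom (limma 3.58.1). P-values over lines set the difference between the groups against the spread between these single trees. The lines were chosen on these counts, so the p-values serve only to rank and count loci.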

Additional observations from a re-analysis of the deposited data

Results flagged for a closer look

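Of 32 sets of values of the other 6 lines that were checked for a tree far from the rest, 2 held one; chance gives about 1 in 20. At a chromosome 1 locus, seventh in log2 fold change among called loci of at least 5 CPM without overlap, line 10 stood at 5.11 CPM, away from the other 5 lines at 2.93 to 3.42 CPM and nearer to lines 5, 17 and 30, which stood at 7.95 to 12.8 CPM. At the most abundant lower locus, on chromosome 16, line 1 stood at 1099 CPM, away from the other 5 lines at 1350 to 1446 CPM and nearer to lines 5, 17 and 30, which stood at 641 to 948 CPM.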

How the results depend on the processing

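The count of 1216 called loci (540 higher, 676 lower) stayed within 1.5 times with DESeq2 size factors, no filter, a minimum of 1 CPM in 3 libraries, limma-voom, the first listed transcript model, reads thinned to line 5, and removal of the chromosome 5 stretch or of the 34 variable loci (860 to 1329). It was 300 with library totals (293 higher, 7 lower) and 2825 with DESeq2 (1118 higher, 1707 lower). Leaving out 1 line gave 4 to 3575 (4 to 1736 higher, 0 to 1839 lower); the low end came without line 30, the high end without line 1. It was 0 (0 higher, 0 lower) with lines 1 and 6 as the only other lines or with the chromosome 5 share as covariate, both chosen after the data were seen, as was the removal of the 34 loci. Fewer libraries or residual degrees of freedom enter both. The share did not overlap between the 2 groups of lines, and lines 1 and 6 were the nearest to the 3 at the called loci. Neither fit can thus part the share from the grouping, and the cause was not tested. Of the 24 named calls, 23 were lost without line 30, 14 without line 17, 14 without line 3, 12 with library totals, and 24 in both fits on the share; no direction turned, which their lack of overlap fixes when lines are left out. The share on the chromosome 5 stretch averaged 1.74% in the 3 lines, and 0.704% of column totals over all transcript models, a larger denominator. The gene list alternatives were not run for want of descriptions. No paired analysis was possible because each number names a line of its own and the groups share none. Levels under about 1 CPM rest on a few reads.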
